A study of Mus musculus with 19 samples.

Results

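The genes described here are 10 genes of brain endothelium, the cell layer that lines blood vessels, and they code for parts of the blood-brain barrier or for proteins that hold leukocytes to the vessel wall. They were taken by name: the junction genes Cldn5, Ocln, Tjp1, Cdh5 and Pecam1, the transporter genes Mfsd2a and Slco1a4, Vwf, and the adhesion molecule genes Icam1 and Vcam1. All 10 were among the 15634 genes of the hippocampus table, and 7 of them were among the 13783 genes of the table of sorted brain cells. Cldn5, Mfsd2a and Slco1a4 were not analysed in sorted cells. All 10 passed the filter on low values in hippocampus, and the 7 passed it in sorted cells.

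All mice had received split-dose total-body irradiation of 1100 cGy and 5000000 T-cell-depleted bone marrow cells. Chronic graft-versus-host disease (GVHD) groups were also given 500000 splenic T cells, and the control groups, called TCD, were not. Whole hippocampus gave 3 libraries from GVHD and 3 from TCD mice at day 80. The sorted cells, isolated by flow cytometry at day 70, were 6 libraries of marrow-derived donor macrophages and 4 of host microglia, all from GVHD mice, and 3 of host microglia from TCD mice; the design text calls the donor cells microglia. Strain, sex, age and any pooling of mice are not given in the labels. TCD host library 1 is TCD by title and carries Syn in its description, with no explanation of that word, and it is the only TCD host library with the lower of the 2 API numbers that the titles give. For these reasons the result of Vcam1 between the host microglia of GVHD and TCD mice is also given without it. So are the calls between donor macrophages and TCD host microglia. The values are normalised counts, and each hippocampus library rests on an estimated 16673616 to 18546935 reads, each sorted library on 7901523 to 35844769. The labels do not say whether libraries of a group came from separate mice, so p-values measure the spread between libraries.

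Endothelial cells of the brain are sealed to each other by tight junctions, in which the membrane proteins claudin-5 and occludin are tied to the cytoskeleton through the scaffold protein ZO-1. Traffic through the cells is kept low and is controlled by transporters, while leukocytes enter by rolling on, binding to and crossing the vessel wall, with ICAM-1 and VCAM-1 as ligands of leukocyte integrins. Both adhesion molecules are known to be induced in endothelium by inflammatory cytokines through NF-kB, and Icam1 also by interferon-gamma. Expression of several of these genes outside endothelium is also known, as of Tjp1 in epithelia and Icam1 in myeloid cells.

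Promoter sequences are shown for Icam1, a cytokine-induced member, and Cldn5, the member with the lowest fold change in GVHD hippocampus. RefSeq entries on GRCm38.p6 were matched for 6 of the 10 genes. Vcam1, Pecam1, Cdh5 and Vwf had no matched entry. In the 250 bases before each start, the NF-kB pattern, GGG followed by any 5 bases and CC, was searched on both strands. Capitals mark every match, whichever the strand, and matches that overlap form 1 run of capitals.
Icam1, chr9:21015690-21015939, plus strand, GRCm38.p6: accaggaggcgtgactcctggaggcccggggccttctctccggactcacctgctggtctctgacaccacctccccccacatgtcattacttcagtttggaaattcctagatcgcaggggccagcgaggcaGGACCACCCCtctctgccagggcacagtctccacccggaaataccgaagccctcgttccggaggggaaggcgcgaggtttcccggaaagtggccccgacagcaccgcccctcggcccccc
Cldn5, chr16:18776597-18776846, plus strand, GRCm38.p6: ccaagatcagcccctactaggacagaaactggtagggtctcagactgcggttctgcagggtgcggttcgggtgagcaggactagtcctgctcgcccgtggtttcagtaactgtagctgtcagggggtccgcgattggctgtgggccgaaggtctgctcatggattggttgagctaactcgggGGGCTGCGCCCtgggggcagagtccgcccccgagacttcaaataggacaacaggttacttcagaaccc
The Icam1 window held 1 NF-kB pattern, on the minus strand, from base 120 to base 111 before the start. In the letters of the plus strand, as printed above, it reads GGACCACCCC. The Cldn5 window held 1 on each strand, and these 2 overlapped. At least 1 such pattern was found in 45.8% of 32851 mouse promoters of the same length. The patterns describe letters in these windows and no binding was measured. NF-kB sites with other letters than this pattern were not searched for and would stand in lower case.

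The hippocampus comparison asks whether the endothelial barrier and adhesion genes differ in chronic GVHD from their levels in TCD recipients. None of the 10 genes passed the test over all genes (limma, adjusted p under 0.05), where 69 of 14404 tested genes, or 0.479%, did. At an unadjusted p under 0.05 there were 4 of the 10, against 17.0% of all tested genes. These 4, Cldn5, Mfsd2a, Vwf and Vcam1, were also those whose GVHD and TCD libraries did not overlap, against 24.0% of all tested genes. Cldn5 and Mfsd2a were lower in each GVHD library than in any TCD library, while Vwf and Vcam1 were higher. The median log2 fold change of the 10 genes was 0.05, beside 0.005 for all tested genes, and the range ran from -0.58 to 0.50. In whole tissue, fewer endothelial cells and less RNA per cell cannot be told apart.

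**Figure D1:**
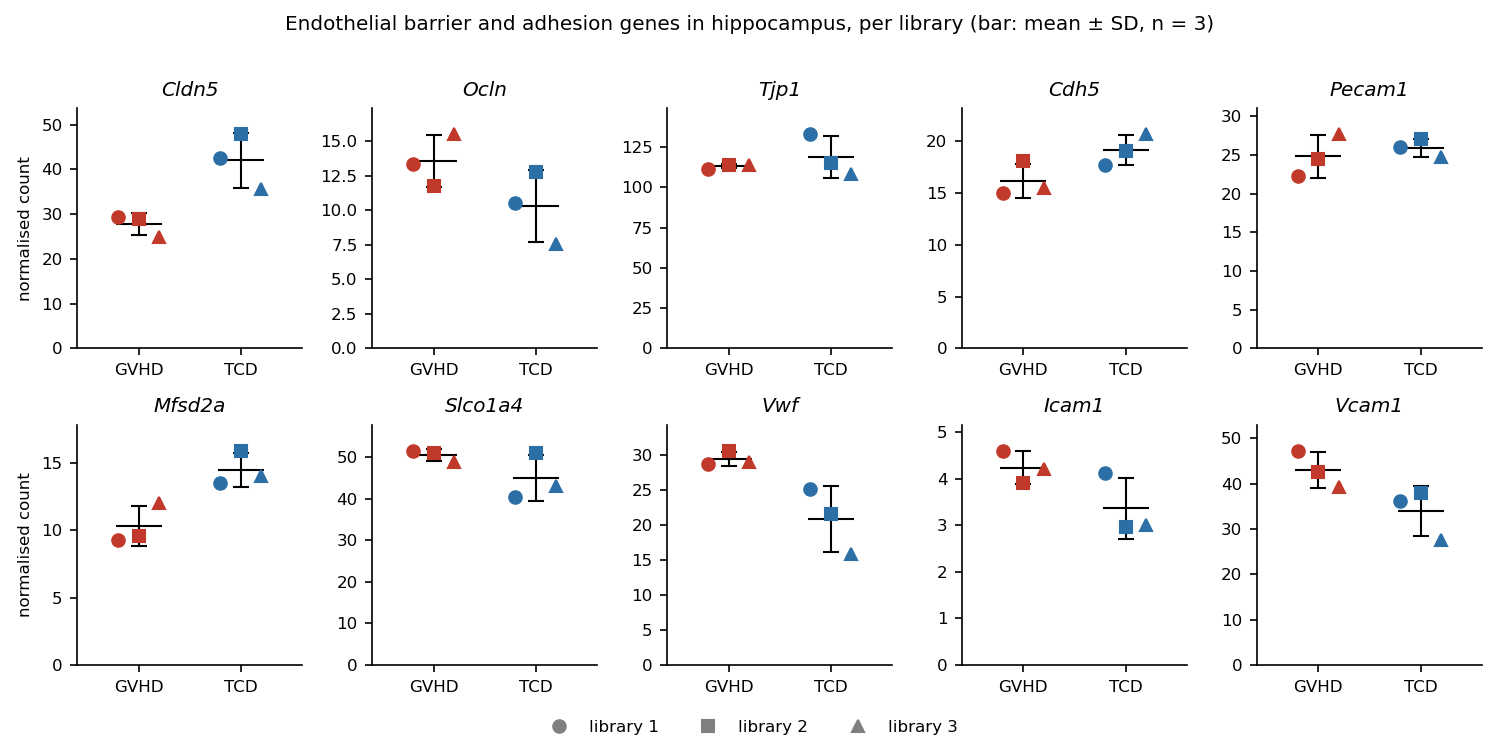
Normalised count of each of the 10 genes (vertical axes, from 0) in the 3 GVHD and 3 TCD hippocampus libraries, with a symbol per library number and bars at the mean ± SD (n = 3). The groups do not overlap for Cldn5 and Mfsd2a, lower in GVHD, and for Vwf and Vcam1, higher in GVHD.

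Among tight junction genes, Cldn5 (ENSMUSG00000041378, chromosome 16, 18776847 to 18778262 on GRCm38) codes for claudin-5, the main claudin of brain endothelium. Its normalised counts were 29.3, 29.0 and 24.9 in GVHD libraries 1 to 3, against 42.5, 47.9 and 35.7 in TCD libraries 1 to 3. Every GVHD library lay below every TCD library, with GVHD library 3 lowest. The means were 27.7 ± 2.47 in GVHD and 42.0 ± 6.12 in TCD (SD, n = 3 each). The log2 fold change was -0.58 ± 0.12 (SE; 95% interval -0.85 to -0.30), limma adjusted p = 0.0742. Adjusted p was under 0.05 only when TCD library 3 was left out, where the log2 fold change was -0.69 and adjusted p = 0.0420; over all alternatives adjusted p ran from 0.0420 to 0.234. The gene is rich in GC, with 60.5% of its exonic bases. The libraries differed in how values moved with GC content: the slope per 10 percentage points of GC, on the log2 scale, was -0.042, -0.015 and -0.117 in GVHD libraries 1 to 3, against 0.095, 0.068 and 0.012 in TCD libraries 1 to 3. After each library was corrected for GC content, the log2 fold change of Cldn5 was -0.42 (adjusted p = 0.106). Among the other genes of the 10, GC content was lowest in Vcam1 (40.1%), Slco1a4 (40.3%) and Ocln (42.0%), and highest in Vwf (56.5%). Alternatives that kept all libraries, GC correction among them, gave log2 fold changes of 0.24 to 0.38 for Vcam1 and 0.07 to 0.21 for Slco1a4. For Ocln they gave 0.22 to 0.42 and for Vwf 0.37 to 0.55. With each library left out in turn, the ranges were 0.20 to 0.43 for Vcam1 and 0.10 to 0.27 for Slco1a4. They were 0.20 to 0.54 for Ocln and 0.33 to 0.64 for Vwf.

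Ocln, which codes for occludin, had normalised counts of 13.3, 11.8 and 15.5 in GVHD libraries 1 to 3, against 10.5, 12.8 and 7.58 in TCD libraries 1 to 3. The groups overlapped, and TCD library 3 was the lowest. The log2 fold change was 0.38 ± 0.18 (95% interval -0.04 to 0.80, adjusted p = 0.332). Tjp1, which codes for the scaffold ZO-1, had normalised counts of 113 ± 1.23 in GVHD and 119 ± 12.8 in TCD (SD, n = 3 each). Its 3 GVHD values, from 111.7 to 113.9, lay within the TCD range of 108.3 to 133.1. The log2 fold change of -0.07 ± 0.09 has an interval from -0.26 to 0.13 (adjusted p = 0.740).

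Cdh5 codes for VE-cadherin, the adherens junction protein of endothelium. It had normalised counts of 15.0, 18.1 and 15.5 in GVHD libraries 1 to 3, against 17.7, 19.003 and 20.7 in TCD libraries 1 to 3. The groups overlapped through GVHD library 2 and TCD library 1, and the log2 fold change was -0.23 ± 0.11 (95% interval -0.48 to 0.02, adjusted p = 0.329). Pecam1 codes for a receptor at the borders between endothelial cells through which leukocytes pass. Its normalised counts were 22.3, 24.5 and 27.7 in GVHD libraries 1 to 3, against 26.0, 27.1 and 24.8 in TCD libraries 1 to 3. The GVHD values spanned the TCD values, with a log2 fold change of -0.07 ± 0.10 (95% interval -0.30 to 0.17, adjusted p = 0.787).

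Of the transporter genes, Mfsd2a codes for a carrier of omega-3 lysophospholipids that also restrains vesicle transport across brain endothelium. Its normalised counts were 9.29, 9.59 and 12.03 in GVHD libraries 1 to 3, against 13.6, 15.9 and 14.003 in TCD libraries 1 to 3. No GVHD library reached the lowest TCD library. The means were 10.3 ± 1.50 in GVHD and 14.5 ± 1.25 in TCD (SD, n = 3 each), with a log2 fold change of -0.46 ± 0.13 (95% interval -0.76 to -0.16, limma adjusted p = 0.141). Slco1a4 codes for an organic anion transporter of brain capillaries. It had normalised counts of 51.6, 51.0 and 48.9 in GVHD libraries 1 to 3, against 40.5, 51.2 and 43.2 in TCD libraries 1 to 3. TCD library 2 lay among the GVHD values, and the log2 fold change was 0.17 ± 0.10 (95% interval -0.05 to 0.39, adjusted p = 0.414).

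Vwf codes for von Willebrand factor, which endothelium stores and releases to tether platelets. Its normalised counts were 28.7, 30.6 and 29.0 in GVHD libraries 1 to 3, against 25.1, 21.6 and 15.8 in TCD libraries 1 to 3. The GVHD libraries lay close together above all TCD libraries, which were spread more widely. The means were 29.4 ± 1.01 in GVHD and 20.8 ± 4.68 in TCD (SD, n = 3 each), with a log2 fold change of 0.50 ± 0.15 (95% interval 0.16 to 0.85, limma adjusted p = 0.158).

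Of the adhesion molecules, Vcam1 had normalised counts of 47.3, 42.5 and 39.2 in GVHD libraries 1 to 3, against 36.2, 37.9 and 27.6 in TCD libraries 1 to 3. The gap between the lowest GVHD value and the highest TCD value was small, and TCD library 3 was lowest. The means were 43.0 ± 4.05 in GVHD and 33.9 ± 5.56 in TCD (SD, n = 3 each), with a log2 fold change of 0.34 ± 0.13 (95% interval 0.05 to 0.64, limma adjusted p = 0.231). Icam1 had low normalised counts of 4.60, 3.90 and 4.20 in GVHD libraries 1 to 3, against 4.12, 2.96 and 3.01 in TCD libraries 1 to 3. The groups overlapped through TCD library 1. These values rest on an estimated 68.7 to 85.2 reads in GVHD libraries and 49.2 to 70.9 in TCD libraries. The log2 fold change was 0.27 ± 0.16 (95% interval -0.10 to 0.64, adjusted p = 0.436), an interval that holds both no change and a rise of up to 0.64.

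Markers of other cell types were also summed in the hippocampus libraries, with no test on the sums. The summed level of 6 macrophage markers ran from 49.3 to 228.9 in GVHD libraries and from 15.9 to 51.9 in TCD libraries, and macrophages express Icam1 and Vcam1 in the sorted libraries described further on. Of 4 T cell markers only Cd8a was listed in the hippocampus table, at 1.35 to 2.59 in GVHD libraries and 0.06 to 0.70 in TCD libraries. All 14 choroid plexus genes were higher in each GVHD library than in any TCD library. Of all tested genes, 24.0% had groups that did not overlap, in either direction. By limma 13 of the 14 rose, against 0.319% of all tested genes (median log2 fold change 3.36), with the smallest p for Prlr, Kcne2, F5 and Clic6. None of the choroid plexus genes tested was called when GVHD library 1, GVHD library 3 or TCD library 2 was left out or when the variance trend was dropped, and 2 were with a pseudocount of 10. Their summed level was 4695, 1672 and 5455 in GVHD libraries 1 to 3, against 272.7, 226.3 and 181.9 in TCD libraries 1 to 3. The summed level of 5 neuronal markers ran from 6390 to 6557 in GVHD libraries and from 7299 to 8769 in TCD libraries. Sums overlapped between the groups for the macrophage markers above. They also overlapped for microglia (176.9 to 264.8 in GVHD and 234.2 to 268.7 in TCD libraries) and astrocytes (4484 to 5097 and 4608 to 5423). The same held for oligodendrocytes (3744 to 5147 and 2739 to 4077) and mural cells (151.6 to 158.4 and 155.2 to 167.7). The part of any of these cell types in the endothelial values was not tested.

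The endothelial cell content was described with 22 genes of endothelial identity that are none of the 10. Their summed level was 468.4, 492.1 and 505.3 in GVHD libraries 1 to 3, against 485.7, 505.1 and 489.8 in TCD libraries 1 to 3, so the groups overlapped. A smaller set of 6 endothelial markers did not overlap. It summed to 156.9 to 173.4 in GVHD and 175.1 to 205.2 in TCD libraries, with no test on the sums. That set holds Cldn5, Pecam1 and Cdh5, which are among the 10, and Kdr, Flt1 and Tie1, which are among the 22. None of the 22 passed the test over all genes (limma), and 6 had an unadjusted p under 0.05, against 17.0% of all tested genes. Their median log2 fold change was -0.09. Those with the smallest p were Sox18 (log2 fold change -0.49) and Sox17 (-0.47), transcription factors of endothelium, Ptprb (0.20), a phosphatase acting on VE-cadherin, and Nos3 (-0.37), the endothelial nitric oxide synthase. Set relative to the mean of the 22 genes in each library, the log2 fold change was -0.53 for Cldn5, -0.42 for Mfsd2a, 0.54 for Vwf and 0.38 for Vcam1. These are close to the values on the deposited scale, and the median of all genes moved to 0.048.

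**Figure D2:**
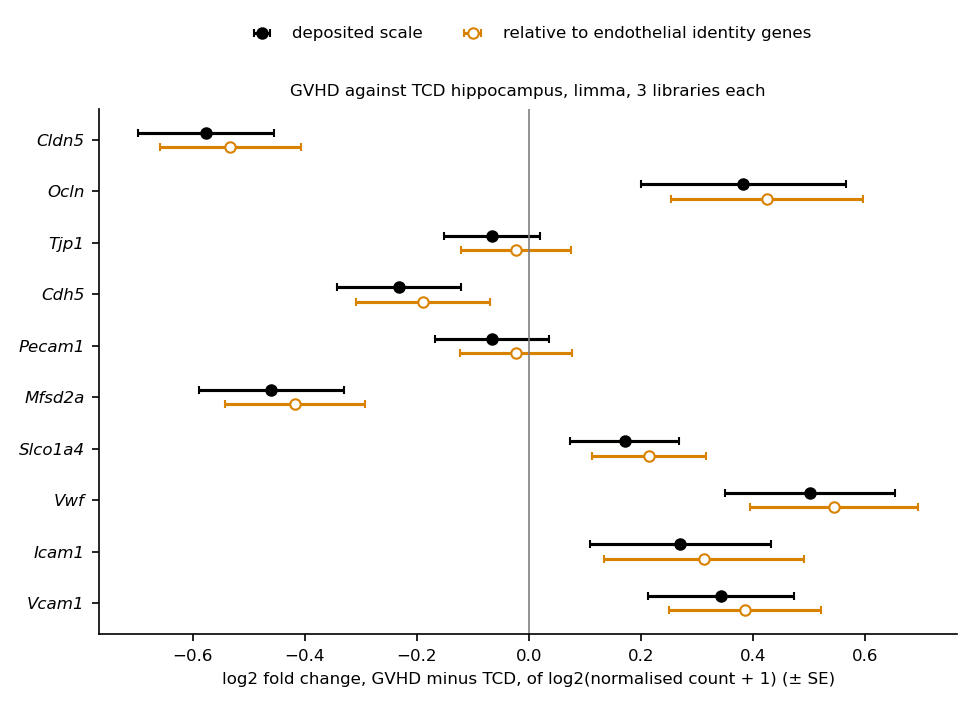
Log2 fold change of each gene, GVHD minus TCD hippocampus (horizontal axis), with its SE from limma over 3 libraries per group. Filled points are on the deposited scale and open points are relative to 22 endothelial identity genes; Cldn5 (-0.58 and -0.53) and Vwf (0.50 and 0.54) lie at the ends on both.

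Per kilobase of exon, Cldn5 had the highest level of the 10 genes in both groups, with 19.6 ± 1.74 normalised counts per kb in GVHD and 29.7 ± 4.32 in TCD (SD, n = 3 each). Tjp1 came next, with 14.5 ± 0.16 per kb in GVHD and 15.2 ± 1.63 in TCD, then Slco1a4, with 7.87 ± 0.23 in GVHD and 7.01 ± 0.87 in TCD. In GVHD the order went on with Vcam1 (4.85), Mfsd2a (4.58), Pecam1 (3.99), Cdh5 (3.85), Ocln (3.20), Vwf (1.83) and Icam1 (0.97). In TCD it went on with Mfsd2a (6.44), Cdh5 (4.55), Pecam1 (4.17), Vcam1 (3.82), Ocln (2.44), Vwf (1.30) and Icam1 (0.77). In GVHD libraries the ranges of neighbours overlapped from Vcam1 down to Ocln. In TCD libraries those of Slco1a4 and Mfsd2a overlapped, as did those of Cdh5, Pecam1 and Vcam1. The order within these runs is within the spread between libraries.

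The 5 tested genes whose log2 values were most like those of Cldn5 over the 6 hippocampus libraries, by Pearson correlation, were Bcan (0.994), Gm13456 (0.994), Tsc22d4 (0.992), Guk1 (0.989) and St6galnac6 (0.988). The points are the same 6 libraries, and each of these 5 genes was lower in all GVHD libraries than in any TCD library, with log2 fold changes from -0.53 for Bcan to -0.27 for Guk1. None of the 22 endothelial identity genes was among these 5, but 5 of 14404 tested genes would rarely include any of 22 in any case. Bcan codes for brevican, a proteoglycan of the brain's extracellular matrix. Its GC content was 60.7%, while that of Gm13456 was 49.1% and those of the other 3 ran from 57.1% to 57.9%.

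Other genes of the barrier were counted from lists. Counts of these and the following hippocampus lists stand against 0.479% of all tested genes that passed and 17.0% with an unadjusted p under 0.05. Of 18 tested junction genes beside the 10, none passed the test over all genes (limma; 7 had an unadjusted p under 0.05) and the median log2 fold change was 0.04. Cgnl1, a junction adaptor, had 37.7 ± 14.8 normalised counts in GVHD and 17.1 ± 1.38 in TCD (SD, n = 3 each; log2 fold change 1.02, adjusted p = 0.102). F11r, which codes for the junctional adhesion molecule JAM-A, had 8.88 ± 0.03 in GVHD and 6.10 ± 0.55 in TCD (0.48, adjusted p = 0.109). Cldn1, a claudin that is also known from choroid plexus epithelium, had 14.2 ± 1.81 in GVHD and 5.37 ± 3.40 in TCD (1.45, adjusted p = 0.149). Ctnna1, which codes for the alpha-catenin that links cadherins to actin, had a log2 fold change of 0.32. Groups did not overlap for 6 of the 18 genes, these 4 among them, against 24.0% of all tested genes. In GVHD libraries 1 to 3 Cgnl1 had 38.8, 22.4 and 52.0. Cgnl1, Cldn1 and Ctnna1 were lowest in library 2 of these, as was the summed choroid plexus level, and F11r was not. The part of choroid plexus in these values was not tested.

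None of 14 tested barrier transporters passed (limma; 1 had an unadjusted p under 0.05, Slco1c1, which carries thyroid hormone, with a log2 fold change of 0.37), and their median was 0.01. None of 7 transcytosis genes passed (limma; 2 had an unadjusted p under 0.05), with a median of -0.08. Among them Plvap, a protein of fenestrated and leaky vessels, had 10.2 ± 1.67 normalised counts in GVHD and 13.2 ± 0.73 in TCD (log2 fold change -0.36), while Cavin1, a caveolar coat protein, was at -0.20 and Ehd4 at 0.37. None of 14 genes of the Wnt and norrin pathway that maintains the barrier passed (limma; 4 had an unadjusted p under 0.05), and their median was -0.17. The norrin receptor gene Fzd4 had 12.4 ± 2.25 in GVHD and 6.91 ± 0.22 in TCD (0.75, adjusted p = 0.068). The norrin gene Ndp, made by astrocytes, had 6.61 ± 0.38 in GVHD and 10.1 ± 1.15 in TCD (-0.54, adjusted p = 0.090). The co-receptor genes Lrp6 and Reck were at 0.32 and 0.34. Groups did not overlap for 5 of the 14 genes, these 4 among them, against 24.0% of all tested genes. In GVHD libraries 1 to 3 Fzd4 had 13.1, 9.88 and 14.2. Fzd4, Lrp6, Reck, Slco1c1 and Cavin1 were lowest in library 2 of these, as was the summed choroid plexus level. Ndp, Plvap and Ehd4 were not. The part of choroid plexus in these values was not tested.

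Genes of leukocyte entry were counted likewise. Of 14 adhesion and activation genes beside the 10, 11 were listed and 8 were tested, none of which passed or had an unadjusted p under 0.05 (limma; median -0.08). Of 6 tested integrins and selectin ligands that leukocytes use, none passed by limma and 3 had an unadjusted p under 0.05 (median 0.19). Itgal, part of the ICAM-1 receptor LFA-1, had 6.24 ± 3.02 normalised counts in GVHD and 2.14 ± 0.82 in TCD (SD, n = 3 each; 1.14, adjusted p = 0.144). Its partner Itgb2 had 11.1 ± 2.17 in GVHD and 6.39 ± 2.28 in TCD (0.75), and Itgb1, part of the VCAM-1 receptor VLA-4 and also widely expressed, was at 0.28. Selplg, which codes for the selectin ligand PSGL-1, was next by p and had 16.1 ± 9.85 in GVHD and 25.5 ± 0.91 in TCD (-0.86, adjusted p = 0.357), with overlapping groups. Of the 6 genes 4 had a positive and 2 a negative log2 fold change. Of 12 tested cytokine input genes none passed by limma and 5 had an unadjusted p under 0.05 (median 0.23), with the TNF receptor gene Tnfrsf1a at 14.8 ± 0.33 in GVHD and 10.4 ± 0.63 in TCD (0.48, adjusted p = 0.077). Irf1 was at 0.44 and the NF-kB inhibitor gene Nfkbia at 0.33. Of 17 tested interferon-gamma response genes 2 rose, Gbp9 (1.06, adjusted p = 0.045) and Tgtp1 (1.84, adjusted p = 0.047), against 0.319% of all tested genes, and the median was 0.80. Neither was called with a pseudocount of 0.1 or 10, the filter at a value of 5, quantile normalisation, no variance trend or GC correction, nor when GVHD library 1, GVHD library 3 or TCD library 2 was left out. Of the list 1 gene was called when GVHD library 2 or TCD library 1 was left out. In the reported limma fit all 17 genes had a positive log2 fold change, and 16 had an unadjusted p under 0.05, against 17.0% of all tested genes. Groups did not overlap for 16 of the 17, against 24.0% of all tested genes.

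Of the cells and matrix around vessels, none of 13 tested mural cell genes passed or had an unadjusted p under 0.05 (limma; median -0.09), with the pericyte receptor gene Pdgfrb at -0.14 and Vtn at -0.25. None of 9 basement membrane genes passed by limma and 2 had an unadjusted p under 0.05 (median 0.19), the nidogen gene Nid2 (1.05) and the perlecan gene Hspg2 (0.45). None of 8 meningeal fibroblast genes passed by limma and 2 had an unadjusted p under 0.05 (median 0.40), with Igf2 at 178.0 ± 82.7 in GVHD and 50.2 ± 13.9 in TCD (1.71, adjusted p = 0.082). In GVHD libraries 1 to 3 Nid2 had 9.32, 5.53 and 12.8, and Igf2 had 219.4, 82.8 and 232.0. Nid2, Igf2, Hspg2 and Pdgfrb were lowest in library 2 of these, as was the summed choroid plexus level, and Vtn was not. The part of choroid plexus in these values was not tested.

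**Figure D3:**
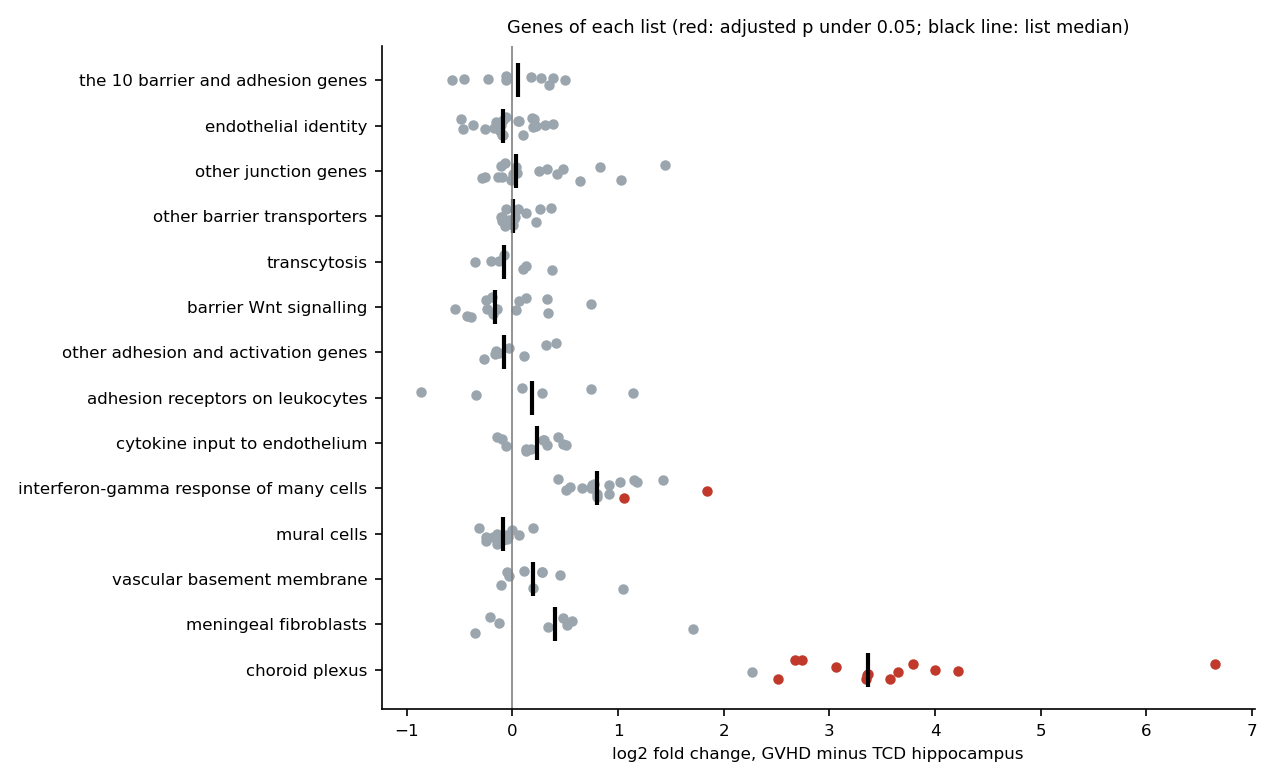
Log2 fold change, GVHD minus TCD hippocampus, of each tested gene (points) of the 10 barrier and adhesion genes and 13 lists (rows), with the list median as a black line. Red points have an adjusted p under 0.05; they are 13 choroid plexus genes and 2 interferon-gamma response genes, and none of the 10.

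The sorted cells show which of these genes brain myeloid cells also express. The defining endothelial marker Cdh5 was low there: it ran from 0.08 to 0.73 in donor macrophages, 0.45 to 1.66 in GVHD host microglia and 0.48 to 2.64 in TCD host microglia, on 1 to 61 estimated reads, while the hippocampus table, which was scaled separately, has 15.0 to 20.7. Of 12 endothelial markers 7 were listed, and their summed level was 18.1 to 37.5 in donor macrophages, 25.3 to 48.3 in GVHD host microglia and 41.9 to 43.8 in TCD host microglia, most of it from Pecam1, Kdr and Flt1. The sort labels were checked on marker genes. A set of 7 microglial markers summed to 9811 to 14318 in donor macrophages, 39667 to 46385 in GVHD host microglia and 44771 to 54347 in TCD host microglia, and 6 macrophage markers summed to 12144 to 20757 in donor macrophages, 518.6 to 1038 in GVHD host microglia and 336.3 to 1023 in TCD host microglia.

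Per kilobase, Vcam1 had the highest mean of the 7 genes in donor macrophages (68.5 ± 21.4, SD, n = 6) and Icam1 the next (42.3 ± 6.62). The ranges of Vcam1 and Icam1 overlapped there, and in donor library 3 Icam1 (49.2) was above Vcam1 (43.9). In GVHD host microglia Icam1 was highest (73.9 ± 13.04, n = 4), then Vcam1 (17.8 ± 6.17), whose range overlapped that of Tjp1 (9.87 ± 1.65). In TCD host microglia Icam1 was highest (59.6 ± 13.3, n = 3), then Tjp1 (9.65 ± 0.64) and Vcam1 (8.30 ± 1.895). The ranges of Tjp1 and Vcam1 overlapped there too. Ocln, Cdh5 and Vwf were the lowest in every sorted group.

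Between donor macrophages and GVHD host microglia, 6 of the 7 genes passed the test over all genes (limma), where 38.6% of 13086 tested genes did; at an unadjusted p under 0.05 there were all 7, against 47.0%. Vcam1 and Vwf were higher in donor macrophages, as were 19.4% of all tested genes, and Icam1, Tjp1, Pecam1 and Ocln were lower, as were 19.2%. For these 6 the groups did not overlap, against 27.9% of all tested genes. All 6 were also called, in the same direction, over the libraries of the higher API number alone.

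Vcam1 ran from 389.3 to 900.5 with a median of 564.9 in the 6 donor macrophage libraries, and stood at 230.5, 100.4, 138.3 and 163.2 in GVHD host microglia libraries 1 to 4. The lowest donor library was above the highest host library. The log2 fold change was 1.96 ± 0.26 (SE, adjusted p = 5.3e-05), and 2.07 within the higher API number. Icam1 ran from 141.1 to 214.6 with a median of 193.3 in donor macrophages, and stood at 250.4, 303.1, 371.1 and 364.5 in GVHD host microglia libraries 1 to 4, all above the donor libraries. It fell by 0.82 ± 0.16 on the log2 scale (adjusted p = 0.0011), and by 0.95 within the higher API number.

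Tjp1 ran from 16.01 to 31.6 with a median of 21.5 in donor macrophages, and stood at 64.2, 87.3, 89.2 and 67.9 in GVHD host microglia libraries 1 to 4. It fell by 1.75 ± 0.16 on the log2 scale (adjusted p = 1.9e-06). Ocln ran from 1.02 to 3.45 with a median of 2.66 in donor macrophages, on 24 to 67 estimated reads, and stood at 13.3, 13.1, 11.4 and 14.8 in GVHD host microglia libraries 1 to 4. It fell by 2.04 ± 0.19 (adjusted p = 3.1e-06). Every donor library lay below every GVHD host library for both of these junction genes. Pecam1 ran from 3.21 to 15.4 with a median of 6.14 in donor macrophages, and stood at 23.2, 31.6, 38.2 and 16.7 in GVHD host microglia, with a log2 fold change of -1.84 ± 0.34 (adjusted p = 0.00081). Vwf averaged 1.74 ± 0.42 in donor macrophages (n = 6) and 0.55 ± 0.20 in GVHD host microglia (n = 4), on 17 to 56 and 6 to 12 estimated reads (log2 fold change 0.82 ± 0.18, adjusted p = 0.0026). The size of the change of these low genes moved with the pseudocount: with 10 in place of 1 the log2 fold change was 0.15 for Vwf, -0.89 for Ocln and -1.11 for Pecam1, and with 0.1 it was 1.53 for Vwf, all still called. Cdh5 did not pass (-0.62 ± 0.23, adjusted p = 0.0504), and its groups overlapped.

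**Figure D4:**
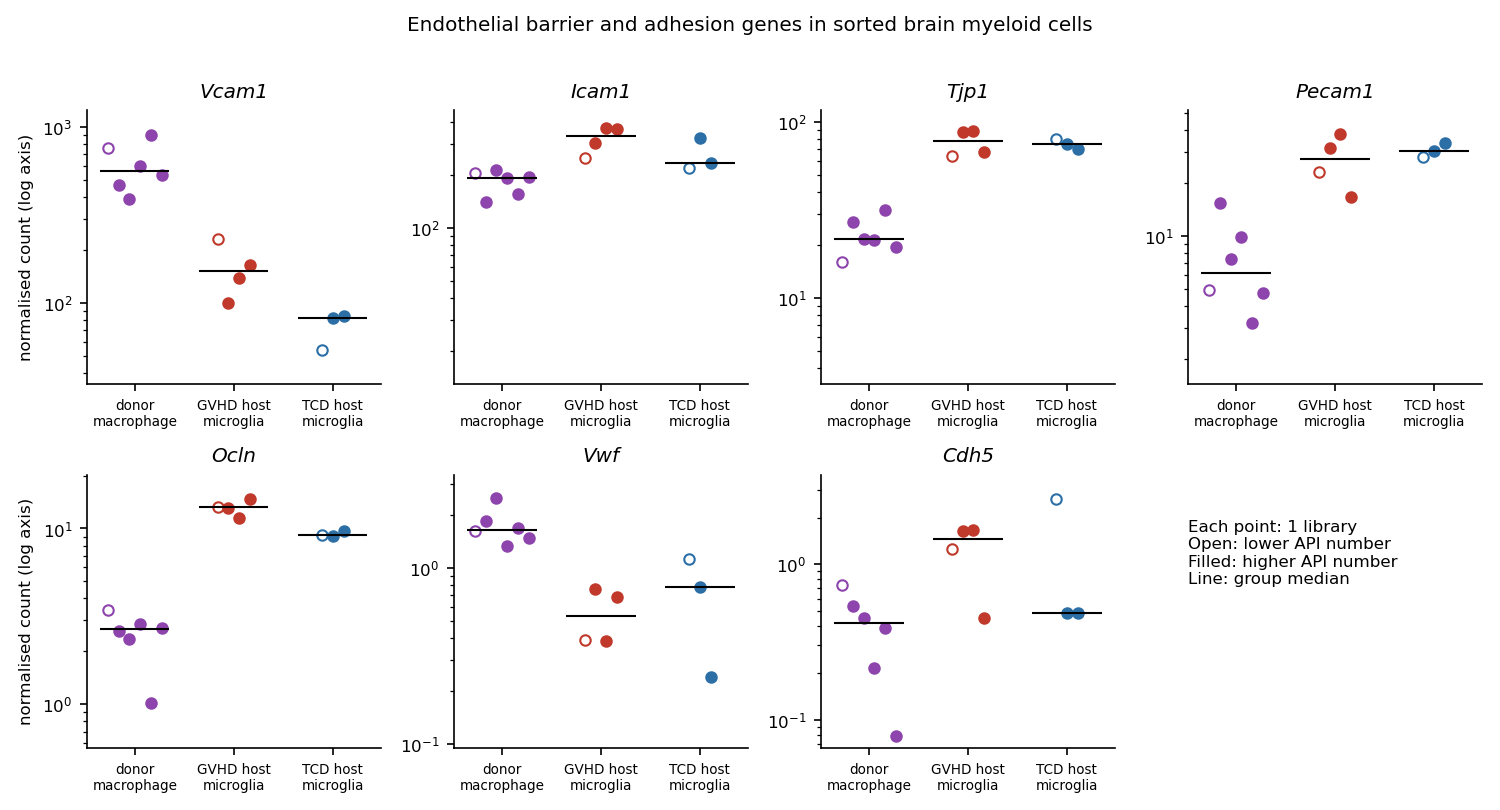
Normalised count on log axes of the 7 genes in 6 donor macrophage, 4 GVHD host microglia and 3 TCD host microglia libraries (points; open for the lower API number, filled for the higher), with the group median as a line. Vcam1 lies higher, and Icam1, Tjp1, Pecam1 and Ocln lower, in every donor library than in any GVHD host library.

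Between host microglia of GVHD and TCD mice none of the 7 genes passed the test over all genes (limma), where 0.107% of tested genes did (0.0917% higher and 0.0153% lower in GVHD hosts), and 1 of 7 had an unadjusted p under 0.05, against 6.85% of all tested genes. That gene was Vcam1, at 230.5, 100.4, 138.3 and 163.2 in GVHD host libraries 1 to 4, against 54.2, 82.2 and 84.4 in TCD host libraries 1 to 3. The groups did not overlap for Vcam1 and Ocln, 2 of 7, against 6.55% of all tested genes. The means of Vcam1 were 158.1 ± 54.7 in GVHD hosts (SD, n = 4) and 73.6 ± 16.8 in TCD hosts (n = 3), with a log2 fold change of 1.08 ± 0.30 (95% interval 0.42 to 1.73, limma adjusted p = 0.285). Library 1 was the highest of the GVHD hosts and the lowest of the TCD hosts, and both have the lower API number. Without TCD host library 1 the log2 fold change was 0.70 (adjusted p = 0.753), and within the higher API number it was 0.65 (adjusted p = 0.906). Macrophage markers summed to overlapping ranges in the 2 host groups, given above, and their part in Vcam1 was not tested.

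Ocln was at 13.3, 13.1, 11.4 and 14.8 in GVHD host libraries 1 to 4, against 9.17, 9.11 and 9.66 in TCD host libraries 1 to 3 (log2 fold change 0.46 ± 0.23, 95% interval -0.03 to 0.96, adjusted p = 0.748). Icam1 averaged 322.3 ± 56.9 in GVHD hosts and 259.8 ± 57.8 in TCD hosts (0.30 ± 0.18, 95% interval -0.10 to 0.70, adjusted p = 0.827), and its groups overlapped. Tjp1 averaged 77.1 ± 12.9 in GVHD hosts and 75.4 ± 5.00 in TCD hosts, a difference of 0.00 ± 0.18 on the log2 scale with an interval from -0.40 to 0.40. Pecam1 averaged 27.4 ± 9.45 in GVHD hosts and 30.8 ± 2.96 in TCD hosts (95% interval of the log2 fold change -1.11 to 0.62). The values of Vwf and Cdh5 in host cells rest on 2 to 61 estimated reads and their groups overlapped.

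Donor macrophages of GVHD mice against host microglia of TCD mice share the donor libraries with the first of these comparisons and the TCD host libraries with the second. Of the 7 genes 6 passed (limma), against 37.0% of all tested genes; 2 were higher in donor macrophages, as were 18.4% of all tested genes, and 4 lower, as were 18.6%. These 6 also had an unadjusted p under 0.05 and groups that did not overlap, against 44.7% and 29.5% of all tested genes. The fits gave log2 fold changes of 3.04 ± 0.28 for Vcam1, 0.71 ± 0.20 for Vwf, -0.52 ± 0.17 for Icam1 (adjusted p = 0.0325), -1.57 ± 0.21 for Ocln, -1.75 ± 0.17 for Tjp1 and -2.08 ± 0.37 for Pecam1. A fit with the replicate number as a block could use only libraries 1 to 3 of each group, in which 12451 genes and 6 of the 7 were tested. There 4 passed, and Vwf (0.82, adjusted p = 0.0797) and Icam1 (-0.47, adjusted p = 0.183) did not. In the same 6 libraries without the block, an alternative chosen after seeing the data, Vwf passed (adjusted p = 0.0468) and Icam1 did not (adjusted p = 0.131). Icam1 was also not called without TCD host library 2 (-0.35, adjusted p = 0.213) or without the API number in the model (-0.49, adjusted p = 0.0501), nor Vwf without TCD host library 3 (0.47, adjusted p = 0.109). Without TCD host library 1, all 6 were called.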

How the data were processed

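Total RNA was sequenced from 6 hippocampus libraries and 13 sorted-cell libraries; libraries are stranded, per the labels. The authors deposited normalised counts (a signal) for which the submitters' processing notes name the tools cutadapt 1.9, STAR 2.5.2a, RSEM 1.2.30 and the build GRCm38; the scaling method is not given in the sources used here. Library totals were 982114.4 to 1078635.6 in hippocampus and 890564.5 to 1090630.5 in sorted cells. Reads were estimated by dividing the values by the smallest step of each library; 83.0% to 83.9% (hippocampus) and 69.3% to 73.8% (sorted) of values came out whole within 0.02 of a step, so no count test was run. Symbols, exon lengths and GC content came from GENCODE on GRCm38; 192 hippocampus and 213 sorted-cell identifiers were unmatched. No gene overlapping one of the 10 is in the tables.

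Values were taken as log2(value + 1). A gene was tested where 3 or more libraries reached a value of 1. Two-sided tests came from limma 3.58.1 (R 4.3.3) with its variance trend, adjusted by Benjamini-Hochberg over all genes tested. The hippocampus model held the groups; 1 model over the 13 sorted libraries held the groups and the API number. Fold changes understate changes of low genes. The model was tested on simulated data. Alternatives covered the pseudocount (0.1 and 10), the filter (none, or a value of 5), rescaling, quantile normalisation, the trend, GC content, endothelial identity genes as the scale, the API number, the replicate block and leaving out each library.

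Replicate numbers were checked as pairs by the correlation of same-numbered libraries' deviations from their group means. In hippocampus these were -0.163, -0.040 and -0.183, and in donor macrophages and GVHD host microglia 0.394, 0.170, -0.022 and 0.016, so the numbers were not taken as pairs. For donor macrophages and TCD host microglia they were 0.585, 0.308 and 0.415, which meets the limit of 0.1 in every pair, from the data alone. The reported fit of this comparison was still unpaired, and the numbers were used as pairs only in the alternative with the replicate block. Unlike numbers correlated as highly there, with 0.532 for donor library 2 and TCD host library 3 and 0.506 for donor library 5 and TCD host library 1, and number 1 has the lower API number in each group. In the host groups they were 0.222, -0.016 and -0.017.

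The genes and lists were chosen with earlier results of these data known. Named genes were the 10, up to 4 tested genes with the smallest p of each list, and the 5 most like Cldn5. A named gene and a planned promoter pattern are not reported here.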

Additional observations from a re-analysis of the deposited data

How the results depend on the processing

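Members called in hippocampus numbered 0 under all alternatives except without TCD library 3, where Cldn5 was called: 0 to 1 over the libraries left out in turn. Cldn5, Mfsd2a, Vwf and Vcam1 kept their direction under all 17 alternatives. Left out in turn, the libraries gave log2 fold changes from -0.145 to 0.0069 for Pecam1 and from -0.130 to 0.017 for Tjp1 in hippocampus. All genes called there, 69 in the reported fit, numbered 4 with a pseudocount of 10, 39 after quantile normalisation, 0 without the trend (2343 at an unadjusted p under 0.05), 45 with GC correction, 16 with the replicate block, 11 with the replicate block and GC correction, and 0 to 123 with a library left out; the cause was not tested. Between host groups 14 genes were called, against 0 with the replicate block, which used libraries 1 to 3 of each group, 0 in those libraries without the block, 1 within the higher API number and 6 to 28 with a library left out.

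Tjp1 between GVHD and TCD host microglia changed sign with a pseudocount of 10 (0.0023), median-of-ratios rescaling (0.010), quantile normalisation (0.042), no API covariate (0.020), the higher API number alone (0.150) and libraries 1 to 3 with or without the replicate block (0.076), and ran from -0.105 to 0.179 with a library left out. Vwf there was 0.103 within the higher API number and ran from -0.345 to 0.085. Neither was called under any alternative. Members called between donor macrophages and GVHD host microglia numbered 5 to 7 under all alternatives, and Cdh5 was called under 7 of them. The log2 fold change of Vwf there was 1.53 with a pseudocount of 0.1 and 0.15 with a pseudocount of 10, since its values are near 1. The stricter filter left out Icam1 in hippocampus, and Vwf and Cdh5 in sorted cells. Estimated reads under 100 limit Icam1 in hippocampus, Vwf and Cdh5 in sorted cells, Ocln in all donor macrophage libraries and in TCD host library 3, and Pecam1 in donor libraries 1, 3 and 6. The fits with the replicate block changed no other call of the 10 genes than those of Vwf and Icam1 named above. The choroid plexus genes called in hippocampus numbered 9 with it and 7 with the replicate block and GC correction, and the interferon-gamma response genes 0 with each.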
